A study of Sus scrofa with 6 samples.

Results

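Genes for the protein subunits of the cytosolic ribosome were examined in brain RNA of 3 Rongchang pigs, a domesticated Chinese breed, and 3 wild boars. All 6 animals were 210 days old, 1 poly(A) RNA library was made per animal, and the labels give neither the brain region nor the sex. Members were chosen by name, as symbols that begin with RPL or RPS and a digit, together with RPLP0, RPLP1, RPLP2 and RPSA and without the RPS6K kinases. A symbol was found for 10937 of the 18225 genes in the table, and 27 of these met the naming rule, each on 1 row. RefSeq's pig assembly lists 84 symbols that meet the same rule, and the other 57 were not analysed here. The 27 comprised 14 proteins of the small subunit, 7 of the large subunit, the 2 stalk proteins RPLP1 and RPLP2, and 4 paralogs named after another ribosomal protein (RPL7L1, RPL26L1, RPL36AL and RPS27L). The first 3 kinds, 23 genes in all, are called the subunit genes here. All 27 passed the filter on low values, which kept the 13152 genes that reached 1 FPKM in 3 or more of the 6 libraries. FPKM counts sequenced fragments relative to transcript length and to the size of the library, so levels of different genes may be set side by side.

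The cytosolic ribosome translates every messenger RNA made in the nucleus. Its small subunit reads the message, and its large subunit joins amino acids and sends the growing chain out through a tunnel. Each ribosome carries 1 copy of nearly all of these proteins, and cells make them in matched amounts. Their messenger RNAs begin with a run of pyrimidines, the terminal oligopyrimidine tract, through which the kinase mTOR and the RNA-binding protein LARP1 adjust their translation together. In neurons, ribosomes serve the cell body as well as dendrites, where proteins are made close to synapses.

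The libraries held 16510 to 17090 genes with a value above 0, and their FPKM summed to 568921 to 687359. Summed levels of 3 of 5 neuronal markers found (SNAP25, SYT1 and NEFL) were between 1105 and 1651 FPKM in every library. Those of 3 of 4 astrocyte markers found (GFAP, SLC1A3 and ALDH1L1) were between 728 and 889 FPKM. ALDH1L1 averaged only 5.74 FPKM, and the other markers named here were abundant throughout. Animals carry the numbers 1 to 3 within each breed, and the labels leave the meaning of a number unstated. Libraries Rongchang 2 and wild boar 2 stood apart from the other 4 in the genes described here, and breed results are given with and without them.

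The subunit genes were among the most abundant in the brain. Their mean over the 6 libraries reached 737 FPKM (RPS28), and all 23 ranked among the 1000 highest of the 13152 genes, with a median rank of 202. RPS28, a small-subunit protein near the path of the messenger RNA, was at 829, 422 and 1082 FPKM in Rongchang 1, 2 and 3, against 820, 404 and 862 FPKM in wild boar 1, 2 and 3. RPLP1, part of the flexible stalk that recruits elongation factors, was at 834, 399 and 1112 FPKM in Rongchang 1, 2 and 3, against 879, 352 and 804 FPKM in wild boar 1, 2 and 3. In both genes the library numbered 2 was the lowest of its breed, Rongchang 3 was the highest of all, and the ranges of the breeds overlapped. Below these came RPS12 with a mean of 565 FPKM, RPS23 of the decoding centre with 407 FPKM, RPS21 with 391 FPKM, and RPS3, which lies at the entry of the messenger RNA channel, with 357 FPKM. RPLP2, the stalk partner of RPLP1, averaged 353 FPKM, and the neighbours RPS3 and RPLP2 did not differ beyond the spread between libraries. RPLP1 stood above RPLP2 in each of the 6 libraries. RPS18 (307 FPKM), RPL11 (285 FPKM) and RPL4 (232 FPKM) completed the 10 most abundant.

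Members of the small subunit kept a similar order of libraries. RPS12 had 602, 370 and 733 FPKM in Rongchang 1, 2 and 3, against 633, 360 and 695 FPKM in wild boar 1, 2 and 3. RPS23 had 506, 225 and 513 FPKM in Rongchang, against 510, 217 and 470 FPKM in wild boar. RPS3A had 216, 110 and 273 FPKM in Rongchang, against 225, 95.6 and 228 FPKM in wild boar. In each of them Rongchang 3 was the highest and wild boar 2 the lowest library. RPS18, which sits at the head of the subunit, had 353, 164 and 434 FPKM in Rongchang 1, 2 and 3, against 368, 152 and 370 FPKM in wild boar 1, 2 and 3. RPS16, which contacts the transfer RNA in the peptidyl site, had 150, 70.5 and 202 FPKM in Rongchang, against 155, 64.4 and 155 FPKM in wild boar. RPS13 was among the least abundant of the small subunit, with a mean of 87.9 FPKM, and it too was lowest in the libraries numbered 2.

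In the large subunit and stalk the same libraries were low. RPLP2 had 407, 200 and 506 FPKM in Rongchang 1, 2 and 3, against 383, 178 and 442 FPKM in wild boar 1, 2 and 3. RPL11 had 324, 176 and 358 FPKM in Rongchang, against 340, 156 and 360 FPKM in wild boar. RPL5 had 251, 182 and 269 FPKM in Rongchang, against 264, 134 and 271 FPKM in wild boar. For RPL11 and RPL5 the highest library was wild boar 3 and not Rongchang 3, by less than the spread within either breed. The same held for RPL27, with 150, 106 and 182 FPKM in Rongchang and 165, 81.2 and 182 FPKM in wild boar.

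The paralogs were far less abundant. RPL26L1 averaged 34.2 FPKM, RPL7L1 8.82 FPKM, RPL36AL 7.58 FPKM and RPS27L 3.56 FPKM, which placed them at ranks 1691, 5702, 6295 and 9358. Their partners RPL26, RPL7, RPL36A and RPS27 are among the symbols not analysed here, so no ratio within a pair is given. Ribosomal protein genes have many processed pseudogene copies, and reads shared with such copies, or between a paralog and its partner, can be assigned in ways that these values do not show.

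As a share of all FPKM, the 27 genes took 1.22%, 0.687% and 1.54% in Rongchang 1, 2 and 3, against 1.07%, 0.604% and 1.24% in wild boar 1, 2 and 3. The mean share was 1.15% ± 0.431 in Rongchang and 0.972% ± 0.329 in wild boar (SD, n = 3 each), a difference smaller than either SD. With mitochondrially encoded genes left out of the total, the share was 1.86% ± 0.617 in Rongchang and 1.75% ± 0.632 in wild boar. The libraries numbered 2 had the lowest share in each breed under both totals. In such bulk tissue, fewer cells of a type and less RNA per cell cannot be told apart.

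**Figure D1:**
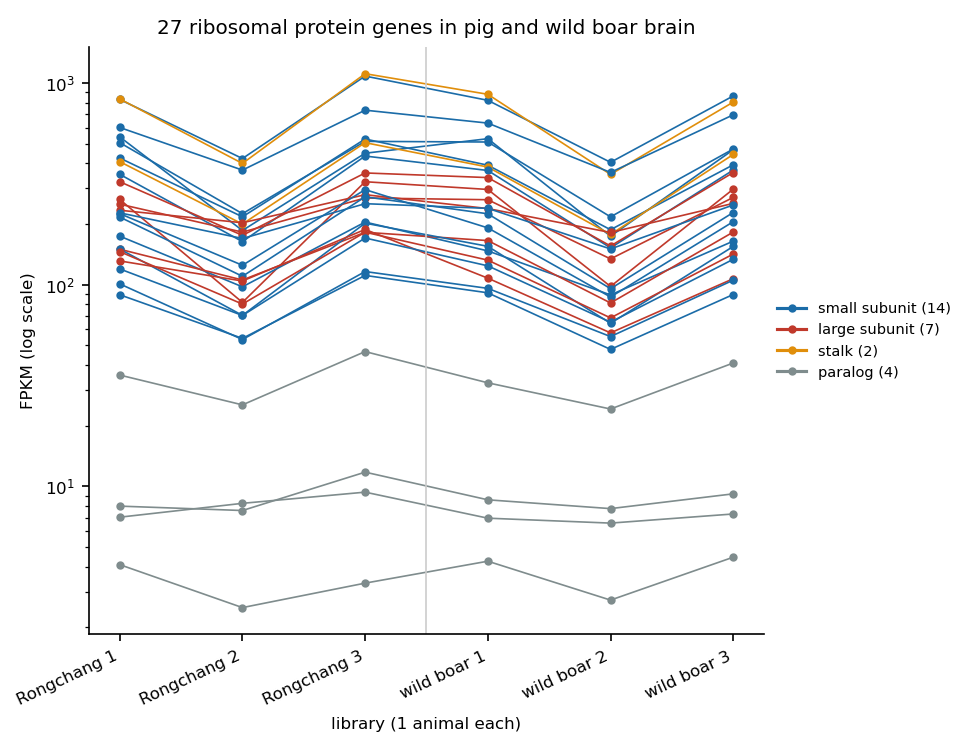
FPKM (log scale) of each of the 27 ribosomal protein genes in the 6 libraries, 1 animal each, with Rongchang on the left and wild boar on the right; a line joins the values of 1 gene as a guide for the eye and colours mark the kind of protein. All 23 subunit genes are lower in Rongchang 2 and wild boar 2 than in the other 4 libraries, and the 4 paralogs lie below them.

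Most of the variation of these genes followed the animal number. In 26 of 27 genes, and in all 23 subunit genes, both libraries numbered 2 lay below all 4 others, where 15.6% of all genes tested did so. The exception was RPL36AL, which had 7.04, 8.25 and 9.37 FPKM in Rongchang 1, 2 and 3, against 6.96, 6.58 and 7.30 FPKM in wild boar 1, 2 and 3. In 0 of the 27 did both lie above all 4 others, which 20.7% of all genes did. The mean of the 2 libraries was between 30.4% (RPL38) and 96.7% (RPL36AL) of the mean of the other 4, with a median of 49.5% over the 27 genes. On the log2(FPKM + 1) scale the median difference was −0.99, against 0.05 over all genes tested. This contrast was noticed in the data, so it is described without a test.

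RPL38, a large-subunit protein known in mice for its part in the translation of Hox messenger RNAs, was at 265, 81.7 and 324 FPKM in Rongchang 1, 2 and 3, against 297, 98.0 and 298 FPKM in wild boar 1, 2 and 3. For RPS21 the values were 540, 186 and 448 FPKM in Rongchang 1, 2 and 3, against 529, 174 and 467 FPKM in wild boar 1, 2 and 3. Both had a wide gap between the libraries numbered 2 and the rest, with levels there at 30.4% and 36.2% of the others. RPL4, which lines the exit tunnel of the large subunit, was at 234, 203 and 279 FPKM in Rongchang 1, 2 and 3, against 238, 181 and 253 FPKM in wild boar 1, 2 and 3. Its level in the libraries numbered 2 was 76.5% of the others, the mildest difference among the subunit genes. RPS4X, the X-linked form of a small-subunit protein, stood at 66.2% of the others, RPL14 at 60.7%, and RPL5, which carries the 5S ribosomal RNA together with RPL11, averaged 158 FPKM in the libraries numbered 2 and 264 FPKM in the others. RPL11 stood at 48.0%. RPS28 stood at 46.0%, near the median. Transcript lengths were not used here, and no cause of these differences was tested.

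Genes with a wide difference in one breed had a wide difference in the other. Measured in each breed alone, as the library numbered 2 minus the mean of libraries 1 and 3, the median over the 27 genes was −1.0 log2 units in Rongchang and −0.99 in wild boar. Across the 27 genes the 2 sets of differences correlated at r = 0.90, and across all genes tested at r = 0.59. These are correlations over genes, which are not independent replicates, and each breed contributes 3 libraries. RPL38 differed by −1.83 log2 units in Rongchang and −1.59 in wild boar, while RPL4 differed by −0.33 in Rongchang and −0.43 in wild boar. RPL5 and RPL27 were the least alike in the breeds. RPL5 differed by −0.51 in Rongchang and −0.99 in wild boar, and RPL27 by −0.64 in Rongchang and −1.09 in wild boar.

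**Figure D2:**
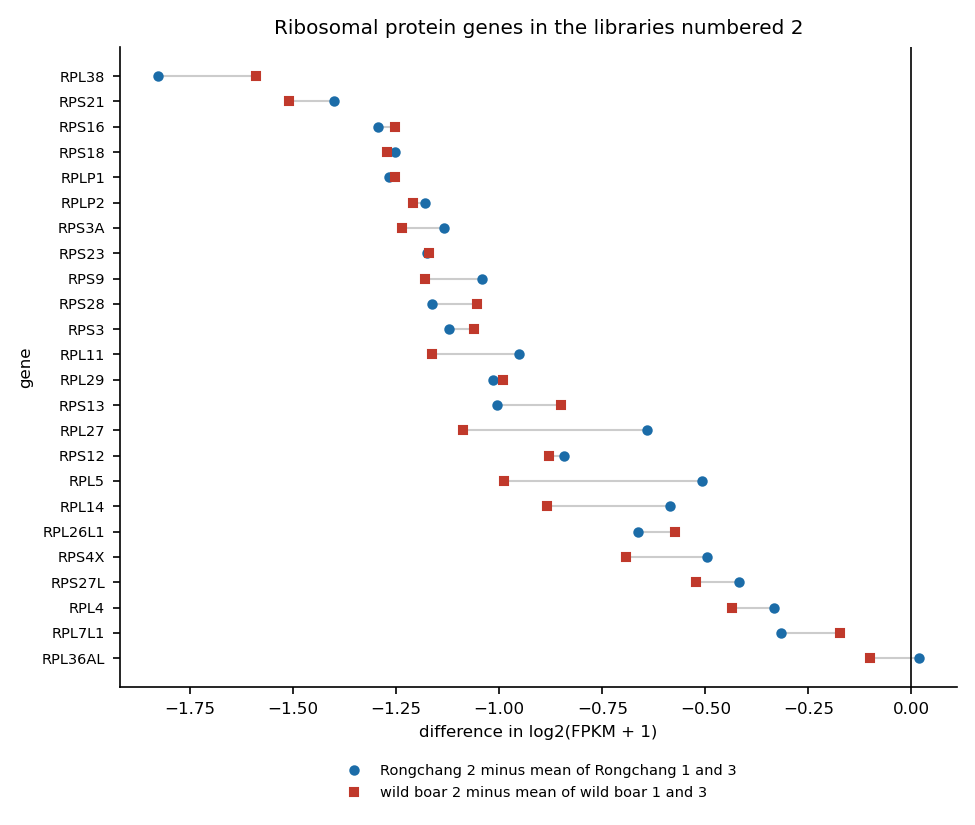
Difference in log2(FPKM + 1) between the library numbered 2 and the mean of libraries 1 and 3 of the same breed, for 24 of the 27 genes; circles are Rongchang and squares wild boar. RPL38 lies farthest below 0 in both breeds (−1.83 and −1.59), and RPL36AL lies near 0.

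Among the 6 libraries the subunit genes varied together. Pearson correlation of log2 values between 2 genes had a median of 0.96 over the 351 pairs of members and 0.97 over the 253 pairs of subunit genes, against 0.14 over all pairs of genes tested. With the median of each library removed these medians were 0.96 for the members and 0.005 for all genes. Values of all genes in a library share its depth and scaling, and with 2 of 6 libraries set apart the coefficients rest mainly on those 2, so they are a description and carry no p-value. With the mean of each animal number removed, the median over member pairs was 0.66. What is left are the differences between the breeds within each number, and a shift shared by most genes adds to that value. The same median over all genes was not computed. In the analysis of each gene's variation, animal number took a median of 96.4% of the sum of squares of the subunit genes and breed 1.58%, against 58.9% and 15.2% over all genes. By degrees of freedom alone, number holds 2 of the 5 and breed 1 of the 5. Of the 23 subunit genes, 22 correlated above 0.9 with the mean of the others. The remaining one was RPL14 (r = 0.80), of whose variation number took 52.2% and breed 41.3%. Among the paralogs, RPL26L1 followed the subunit genes (r = 0.94), RPS27L (r = 0.79) and RPL7L1 (r = 0.72) did so less closely, and RPL36AL least (r = 0.34). RPS3A (r = 0.999), RPS16 and RPS18 (r = 0.997 each) were among those that followed the mean of the other subunit genes most closely.

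Rongchang 3 held the highest value of 22 of the 27 genes, where it did so for 34.5% of all genes tested, and wild boar 2 held the lowest value of 23, where it did so for 22.5% of all genes. Rongchang 3 also had the lowest mitochondrially encoded share of FPKM, 30.0%. With mitochondrially encoded genes left out of the total, the summed share of the 27 genes was 2.223%, 1.144% and 2.203% in Rongchang 1, 2 and 3, against 2.018%, 1.023% and 2.195% in wild boar 1, 2 and 3, so Rongchang 3 no longer stood highest. The 2 subunits moved together. The mean log2 level of the 14 small-subunit genes minus that of the 9 large-subunit and stalk genes was 0.02, −0.13 and −0.02 in Rongchang 1, 2 and 3, against −0.01, −0.02 and −0.04 in wild boar 1, 2 and 3. Rongchang 2 was the lowest and the breeds overlapped. On average the difference was −0.05 ± 0.077 in Rongchang and −0.02 ± 0.013 in wild boar (SD, n = 3 each).

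Levels of some other cell markers moved with the libraries numbered 2. The summed level of 4 of 5 microglia markers found (C1QA, P2RY12, CX3CR1 and CSF1R) was 48.2 FPKM in Rongchang 2 and 37.6 FPKM in wild boar 2, against 67.6 to 84.4 FPKM in the other 4 libraries. Taken singly, only C1QA and CX3CR1 were lower in both libraries numbered 2 than in all others. P2RY12 was at 12.2 FPKM in Rongchang 2 and 10.8 FPKM in wild boar 3, and CSF1R at 9.36 and 9.30 FPKM. That of 3 of 4 erythrocyte markers found (HBB, ALAS2 and SLC4A1) was 68.0 FPKM in Rongchang 2 and 58.5 FPKM in wild boar 2, against 138 to 275 FPKM in the others. HBB, the beta chain of haemoglobin, stood at 30.8% of its level elsewhere, close to the value of RPL38. No marker found in these lists was at 0 in all libraries. The summed levels of the neuronal (1547 and 1596 FPKM) and astrocyte (758 and 733 FPKM) markers in Rongchang 2 and wild boar 2 lay inside the range of the other 4 libraries. The mitochondrially encoded share of FPKM, 39.9% in Rongchang 2 and 41.0% in wild boar 2, did so as well, with 30.0% to 46.8% elsewhere. Endothelial markers (FLT1 and PECAM1) summed to 16.1 FPKM in Rongchang 2 and 16.2 FPKM in wild boar 2, also inside that range. T and B cell markers (CD8A and CD79B) summed to at most 1.32 FPKM. The choroid plexus marker TTR, with FOXJ1, summed to 34.6 FPKM in wild boar 3 and to at most 3.56 FPKM in the others. The part of these cells in the pattern was not tested.

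Between the breeds no ribosomal protein gene passed the test. Fold changes are Rongchang minus wild boar in log2(FPKM + 1), tested with limma across all 13152 genes; the added 1 makes the fold change of low genes, such as the paralogs, smaller than that of the FPKM. None of the 27 passed an adjusted p of 0.05 (adjusted p from 0.789 to 0.994), where 0.00760% of all genes did, and 0 of the 27 had an unadjusted p under 0.05, where 6.0% of all genes did. In 0 of the 27 did the breeds fail to overlap, against 12.5% of all genes. For 26 of the 27 the low libraries numbered 2 fixed this, as each breed holds such a library. The count therefore says little about the breeds. With both libraries numbered 2 within the breeds, the standard error of the fold changes had a median of 0.37 log2 units. Differences of that size were not detectable with 3 animals a breed, and a difference has to be well above its standard error to pass. The 0.64 of RPL14 (SE 0.31) did not pass (limma adjusted p = 0.789). The labels say nothing more of the animals' origin, and each p rests on how these 6 libraries vary.

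The fold change was above 0, that is higher in Rongchang, in 25 of 27 genes, or 92.6%, where 77.9% of all genes tested had the same sign. The median over the 27 was 0.12, beside 0.13 over all genes, and 13 of the 27 lay above the median of all genes. This direction is not stable: with each library scaled to the same median 7 of 27 lay above 0, and with library weights 8 of 27 did. When Rongchang 3 was left out 5 of 27 did, and when wild boar 2 was left out 4 of 27 did. Without both libraries numbered 2, 20 of 27 lay above 0, where 77.4% of all genes did. All 14 small-subunit genes lay above 0, with a median of 0.13, and 8 of the 9 large-subunit and stalk genes did, with a median of 0.12.

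RPL14, a protein of the large subunit, had the smallest unadjusted p of the 27 (0.0718). It was at 131, 104 and 188 FPKM in Rongchang 1, 2 and 3, against 108, 57.7 and 107 FPKM in wild boar 1, 2 and 3. The animals numbered 1, 2 and 3 were each higher in Rongchang, although Rongchang 2 lay just below wild boar 1 and 3. Its mean was 141 ± 42.7 FPKM in Rongchang and 90.8 ± 28.7 FPKM in wild boar (SD, n = 3 each), with a log2 fold change of 0.64 (SE 0.31, limma adjusted p = 0.789). RPL36AL was next by p (0.206), with 8.22 ± 1.16 FPKM in Rongchang and 6.95 ± 0.361 FPKM in wild boar (log2 fold change 0.21). RPS9, a small-subunit protein at the messenger RNA entry, was at 225, 125 and 296 FPKM in Rongchang 1, 2 and 3, against 191, 86.9 and 205 FPKM in wild boar 1, 2 and 3. Here too each Rongchang animal was above the wild boar of its number while the breeds overlapped, with a log2 fold change of 0.43 (SE 0.41, limma adjusted p = 0.860). RPL29 averaged 136 ± 51.7 FPKM in Rongchang and 114 ± 39.9 FPKM in wild boar (log2 fold change 0.24), and RPS3 averaged 390 ± 158 FPKM in Rongchang and 324 ± 118 FPKM in wild boar (0.25). Without wild boar 2 the fold changes of RPL29 and RPS3 were −0.09 and −0.10.

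Of the 27, RPS27L and RPL38 alone had a fold change below 0. RPS27L, whose human counterpart is a target of p53, was at 4.10, 2.51 and 3.32 FPKM in Rongchang 1, 2 and 3, against 4.26, 2.73 and 4.46 FPKM in wild boar 1, 2 and 3 (log2 fold change −0.16, limma adjusted p = 0.886). Every wild boar was above the Rongchang pig of its number. RPL38 had a log2 fold change of −0.10, which was 0.51 without Rongchang 2, 0.16 without wild boar 1 and 0.17 without wild boar 3.

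**Figure D3:**
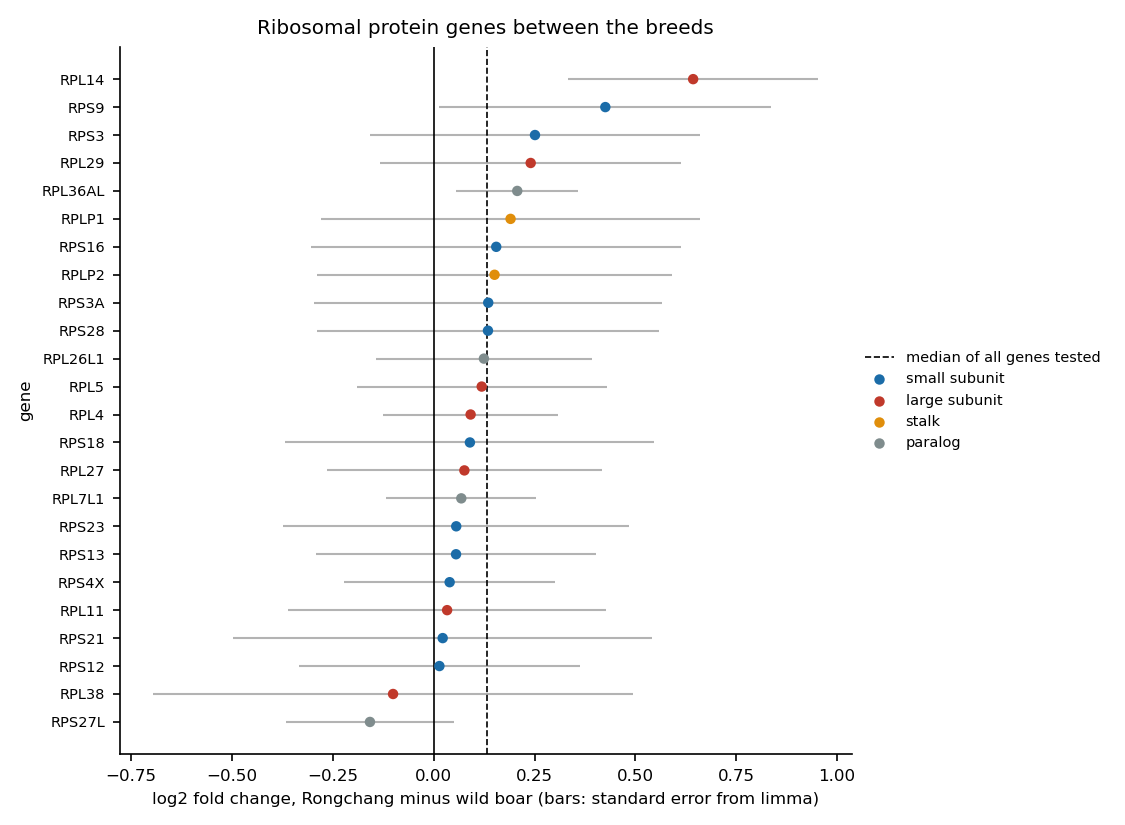
Log2 fold change, Rongchang minus wild boar, of 24 of the 27 genes on the log2(FPKM + 1) scale, with the standard error from limma as bars and colours by kind of protein; the dashed line is the median of all genes tested (0.13). The genes cluster around that line, RPL14 (0.64) and RPS9 (0.43) lie to its right, and only RPL38 and RPS27L lie below 0.

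Since animal number took most of the variation, the breeds were also compared with the number as a block. The labels give a number no meaning, so the block was chosen from these data, and each p with it depends on that choice. Across the members, the deviations of Rongchang 1 and wild boar 3 also correlated (r = 0.67), as did those of Rongchang 3 and wild boar 1 (r = 0.56). The other pairs of unlike number, each with a library numbered 2, correlated below 0. None of the 27 passed an adjusted p (lowest 0.228 in limma, where 0.00760% of all genes passed), and 5 of 27, all higher in Rongchang, had an unadjusted p under 0.05. Among these were RPL14, RPS9, RPL29 and RPS3, and 16% of all genes tested were higher in Rongchang at the same mark, so a share of 18.5% of members is near the background. RPL14 had an unadjusted p of 0.00288 in the limma fit with the block, against 0.0718 in the limma fit without it. With median scaling and the block together, an alternative chosen after the data were seen, RPL14 and RPS9 were higher and RPL38 lower at an unadjusted p under 0.05, beside 10.5% of all genes in either direction. Within the numbers, 11 of the 27 genes were higher in Rongchang for animals numbered 1, where 71.6% of all genes were. For animals numbered 2, 23 of 27 were, against 63.8% of all genes, and for those numbered 3, 22 of 27 were, against 74.5% of all genes. The members thus fell short of the share of all genes in the first pair and exceeded it in the other two. Only 9 of 27 were higher in all 3 pairs, against 38.5% of all genes.

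Without both libraries numbered 2, RPL14 was the 1 gene of the 27 with an unadjusted p under 0.05 (0.0446, adjusted p = 0.549 in limma, with a range of 0.228 to 1 over its 19 alternatives), where 8.99% of all genes reached that mark. Again none of the 27 passed the adjusted threshold, which 0.0683% of all genes did. In 6 of 27 the breeds then did not overlap (among them RPL14, RPS9, RPS3 and RPL29 higher and RPS27L lower in Rongchang), while with only 2 libraries a breed 43.5% of all genes showed no overlap.

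Relative to the other subunit genes RPL14 was separated by breed. Its log2 level minus the mean of the other 22 subunit genes was −1.02, −0.46 and −0.76 in Rongchang 1, 2 and 3, against −1.30, −1.14 and −1.36 in wild boar 1, 2 and 3. All 3 Rongchang values lay above all 3 wild boar values, with a mean of −0.75 ± 0.282 in Rongchang and −1.27 ± 0.110 in wild boar (SD, n = 3 each). RPS9 gave −0.21, −0.19 and −0.08 in Rongchang and −0.44, −0.53 and −0.38 in wild boar, again without overlap. The same held by smaller margins for RPL29 and RPS3, which made 4 of 27 members, or 14.8%. On their own FPKM, 12.5% of all genes tested showed no overlap between the breeds, a share near that of the members here. Of all genes tested 0.745% showed no overlap on this measure, but a gene that does not share the swing of the subunit genes takes on that swing when set against them, so that share is not a like background. RPL14 was singled out after its values were seen, and no test is given. On the same measure RPL4 stood above and RPL38 below the rest in the libraries numbered 2: RPL4 stood at 0.54 in Rongchang 2 and 0.57 in wild boar 2, and RPL38 at −0.82 in Rongchang 2 and −0.35 in wild boar 2.

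**Figure D4:**
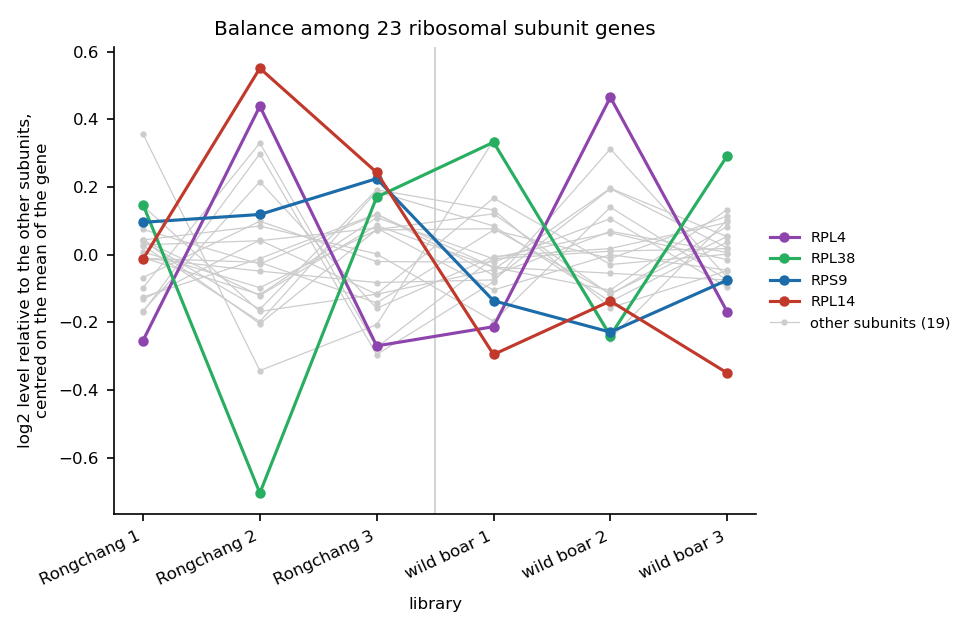
Log2 level of each of the 23 subunit genes relative to the mean of the other subunit genes in the same library, centred on the mean of the gene, with Rongchang on the left and wild boar on the right; lines join the values of 1 gene as a guide for the eye. RPL14 and RPS9 lie higher in all 3 Rongchang libraries than in all 3 wild boar libraries, while RPL4 and RPL38 move in opposite directions in the libraries numbered 2.

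Other genes of the translation machinery shared the pattern by number in part. Of 44 mitochondrial ribosomal protein genes tested, 31 had both libraries numbered 2 below the other 4, with a median difference of −0.39 log2 units, and 0 had an unadjusted p under 0.05 between breeds. MRPL28, the most abundant of them, was at 82.8, 43.1 and 111 FPKM in Rongchang 1, 2 and 3, against 65.8, 46.7 and 74.9 FPKM in wild boar 1, 2 and 3. Among 6 other ribosome proteins and ribosome-bound factors tested, RACK1, a scaffold on the small subunit, was at 155, 106 and 216 FPKM in Rongchang 1, 2 and 3, against 165, 98.2 and 175 FPKM in wild boar 1, 2 and 3, an order close to that of the subunit genes. FAU, which encodes a small-subunit protein fused to a ubiquitin-like domain, did not show it, with a mean of 11.8 ± 0.276 FPKM in Rongchang and 11.1 ± 1.98 FPKM in wild boar (SD, n = 3 each), and wild boar 2 was its highest library.

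Translation factors were mixed. Of 27 initiation factors tested, 10 had both libraries numbered 2 lowest and 5 had both highest, with a median difference of −0.20. EIF4A2, a helicase that unwinds messenger RNA, stood there at 76.9% of its level elsewhere. Of 7 elongation and termination factors, 2 had both libraries numbered 2 lowest and 2 had both highest, with a median difference of 0.03. The 2 lowest were EEF1B2, at 56.6%, and EEF1D, at 74.4%, while EEF2, which moves the ribosome along the message, stood at 102%. Of 46 ribosome biogenesis genes, 3 were lowest there and 8 highest, with a median difference of 0.08, and the nucleolar protein NPM1 stood at 79.5%. Of 13 RNA polymerase I genes, 4 were lowest and 4 highest, and POLR1D, their most abundant, stood at 72%. Of 12 genes of mTOR control, 2 were lowest and 4 highest, and RHEB, the activator of mTOR and the most abundant of them, stood at 65.7%. LARP1, which binds the oligopyrimidine tract of ribosomal protein messages, was at 22.9, 30.2 and 17.5 FPKM in Rongchang 1, 2 and 3, against 17.9, 28.5 and 16.4 FPKM in wild boar 1, 2 and 3, while MTOR, the kinase itself, had 9.74, 12.9 and 9.02 FPKM in Rongchang 1, 2 and 3, against 7.58, 11.9 and 7.96 FPKM in wild boar 1, 2 and 3. LARP1 and MTOR, named after their values were seen, were highest in the libraries where the ribosomal protein genes were lowest. Of all genes tested, 20.7% were likewise highest in both libraries numbered 2. A link between these genes was not tested.

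Between the breeds none of these genes passed an adjusted p either. At an unadjusted p under 0.05, 3 of the 46 biogenesis genes were higher in Rongchang and 0 lower, where 5.42% of all genes tested were higher at that mark, a share near that of the list. They included RRP9, a processing factor of ribosomal RNA, at 7.26 ± 0.949 FPKM in Rongchang and 4.91 ± 0.261 FPKM in wild boar (log2 fold change 0.48, limma adjusted p = 0.784), and NOC2L, at 6.66 ± 0.430 FPKM in Rongchang and 4.70 ± 0.278 FPKM in wild boar (0.43, limma adjusted p = 0.784). In both, all Rongchang animals were above all wild boars, and 12.5% of all genes showed such a separation in one direction or the other. Of the mTOR genes SESN2, a leucine sensor upstream of mTOR, averaged 3.56 ± 0.196 FPKM in Rongchang and 2.64 ± 0.329 FPKM in wild boar (0.33, limma adjusted p = 0.789). The median fold change was 0.15 for the biogenesis genes, 0.13 for the mitochondrial ribosomal protein genes, 0.10 for the initiation factors and 0.10 for the elongation and termination factors, beside 0.13 over all genes.

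**Figure D5:**
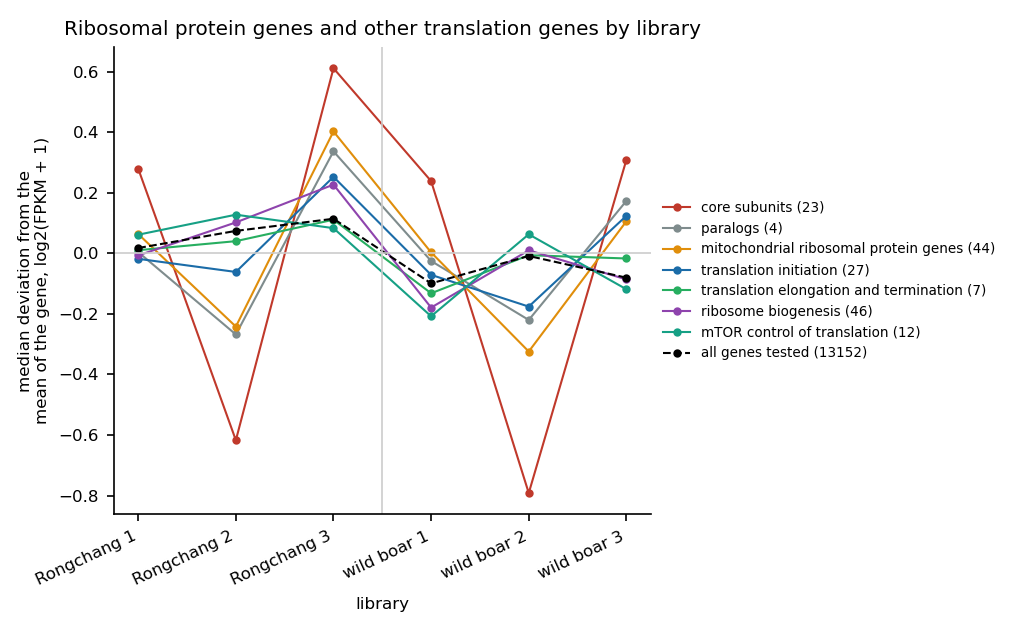
Median, over the genes of each list, of the deviation of a gene's log2(FPKM + 1) from its own mean over the 6 libraries, with Rongchang on the left and wild boar on the right; the dashed line is all genes tested and lines join libraries as a guide for the eye. The subunit genes swing widest, down in Rongchang 2 and wild boar 2, the mitochondrial ribosomal protein genes follow less far, and the ribosome biogenesis and mTOR lists do not dip there.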

How the data were processed

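Per the labels' protocols, poly(A) RNA from TRIzol extracts was made into dUTP-marked libraries and sequenced as 100-bp paired ends. TopHat2 2.0.11, Cufflinks 2.2.1 and Cuffdiff are named in the submitters' processing notes without a role; the build and the annotation are not given in these sources. The authors deposited 1 FPKM value per gene and library; the unit was judged from these tools and the values. Depth is unknown: among values under 0.15 FPKM at most 23.7% of ratios between libraries fell in a window of 0.04 log2 units, so no shared step was found.

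Log2(FPKM + 1) was compared between breeds across all 13152 genes with limma 3.58.1 in R 4.3.3, as a two-sided test using limma's intensity trend and Benjamini-Hochberg adjustment at 0.05. The procedure was tested on simulated data with independent noise in each gene and library. Those data lack the variation by animal number seen here, so the test does not cover it. Symbols came from a table of Ensembl identifiers. Members, lists and tests were chosen with earlier results of these data known. Named were the 10 most and 5 least abundant members, the 6 with the smallest p in each direction, those most and least correlated with the others, and the paralogs; of the other lists the most abundant gene and 2 with the smallest p, and FAU, EEF1B2, LARP1, MTOR and HBB after their values were seen. Some genes that these rules name are counted in totals but not reported here. Across all genes, a library's deviation from its breed's mean correlated with that of the same number in the other breed at 0.28, 0.59 and 0.37 (numbers 1, 2 and 3), above the bound of 0.1, so the number was used as a block, from the data alone. Rongchang 1 with wild boar 3 also lay above it (0.125). Settings tried were pseudocount, filter, scaling, trend, weights, block and left-out libraries.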

Additional observations from a re-analysis of the deposited data

How the results depend on the processing

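No ribosomal protein gene was called under any of the 20 alternatives. Of all genes, 1 was called; this became 3 with a pseudocount of 0.1, 0 with a minimum mean of 5 FPKM (fewer genes tested), 9 without both libraries numbered 2, and 0 to 4 when 1 library was left out (0 without Rongchang 3, 4 without wild boar 1). Members at an unadjusted p under 0.05 numbered 0, but 5 with the replicate block, 3 with median scaling and the block, 1 without both libraries numbered 2, and 0 to 1 when 1 library was left out (RPL14 without Rongchang 2). Members whose breeds did not overlap numbered 0, which the low libraries numbered 2 fixed for 26 of the 27. Without both libraries numbered 2 there were 6. With 1 library left out there were 0 to 5 (5 without Rongchang 2, 1 each without Rongchang 1, wild boar 2 and wild boar 3). In both cases fewer samples make separation easier. The median pairwise correlation of 0.96 was 0.66 with the block, since that removes the number means; it was not run with fewer than 6 libraries. The median fold change of members ran from −0.22 to 0.47, and relative to all genes from −0.37 to 0.34, when 1 library was left out; the difference in summed share ran from −0.019 to 0.41 percentage points around 0.18. Among RPL14, RPL36AL, RPS9, RPL29, RPS3, RPS27L and RPL38, fold changes that turned sign did so only with 1 library left out. Other members turned sign with all libraries kept. In the main fit 25 of 27 members lay above 0, against 7 with median scaling and 8 with library weights. RPL38 ran from −0.63 to 0.51, RPL29 from −0.090 to 0.58 and RPS3 from −0.10 to 0.62. RPL14 (0.35 to 0.84) and RPS9 (0.03 to 0.77) stayed above 0 with any library left out. The cause of these shifts was not tested. Of the 789 genes at that unadjusted mark, 713 were higher in Rongchang and 76 lower, but 246 higher and 248 lower after median scaling. Summing rows by symbol changed nothing, as each member had 1 row. Depth is unknown, so what it limits could not be measured.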
